A study of Canis lupus familiaris with 9 samples.

Results

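Z-disc, M-band and thin filament genes code for the structural proteins that hold the sarcomere, the contractile unit of striated muscle, in register. The set described here has 39 genes, taken as a named list. A gene was a member when a probe set of the array carried its symbol and no other, and 1 probe set stood for each gene, the one with the highest mean over the 9 arrays. All 39 genes had such a probe set, among 15115 genes named on the array, and all 39 passed the filter on low values (4 or more arrays reading above 4 in log2 units), as did 7534 genes in all.

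Skeletal muscle came from 9 intact female beagles aged 4 years, sampled at 24 weeks after an overnight fast. The labels do not name the muscle. The dogs had been randomised to free access to food (ad libitum, 5 dogs, numbered 2, 5, 6, 7 and 8) or to amounts that held body weight at its starting level (control, 4 dogs, numbered 1, 3, 4 and 9), and both groups ate one commercial food, Purina Pro Plan Performance Formula. Total RNA of each dog was hybridised to 1 Affymetrix canine expression array, and values are deposited GCRMA values on a scale taken as log2, so that a difference of 1 is a doubling.

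Sarcomeres are joined end to end at the Z-disc, where alpha-actinin crosslinks the actin thin filaments of neighbouring units and where a large group of adaptor and LIM-domain proteins is docked. Myosin thick filaments are held together in the middle of the sarcomere by the myomesins of the M-band, and titin spans the distance from Z-disc to M-band. Fast and slow fibres use different members of several of these families: ACTN3 is the alpha-actinin of fast glycolytic fibres and ACTN2 that of all fibres, and the myosin-binding proteins C, calsarcins and myomesins have fast and slow forms too. A smaller set of genes, among them ANKRD1, CSRP3, XIRP1 and ACTC1, is known to rise in muscle under load or repair.

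No member passed an adjusted p of 0.05 in limma's test of ad libitum against control dogs after Benjamini-Hochberg adjustment over all 18394 probe sets tested (lowest adjusted p among members 0.796), against 0.0% of the 7534 genes tested. CAPN3 and ACTC1 had an unadjusted p under 0.05, 2 of 39 members against 6.23% of all genes. CAPN3 was the 1 member whose groups did not overlap, against 1.46% of all genes. The mean was lower in ad libitum dogs for 26 members and higher for 13, a share of 66.7% lower against 50.4% of all genes. Differences are given throughout as ad libitum minus control. Their median was -0.042 over members and -0.0021 over all genes, and their median size 0.12 over members and 0.15 over all genes. For 28 members the difference was at most 0.25 in size, and for 4 members, ACTC1, ACTN3, CAPN3 and ANKRD2, it was above 0.5. These are values of each gene's brightest probe set. In 18 of the 28 members with more than 1 tested probe set, the brightest gave the smallest difference in size.

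**Figure D1:**
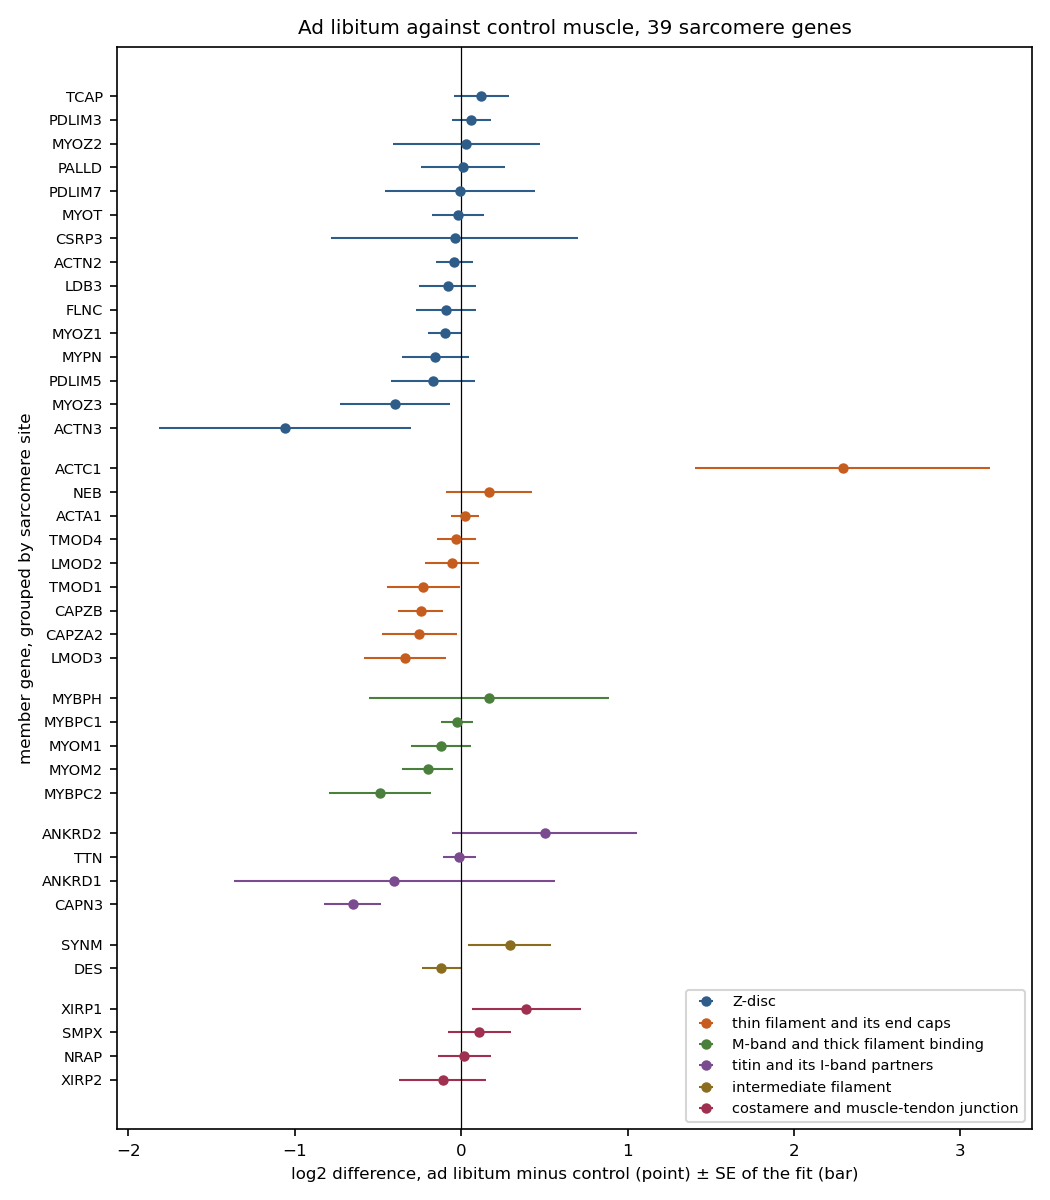
Difference between ad libitum and control dogs for the 39 members, grouped by sarcomere site (horizontal axis, log2 difference, ad libitum minus control). Points are limma estimates and bars ± SE of the fit. A bar clear of 0 does not mark a low p, and only CAPN3 and ACTC1 had an unadjusted limma p under 0.05. The structural core of ACTA1, TTN, MYBPC1, ACTN2 and MYOZ1 lies close to 0 with short bars, by the brightest probe set of each gene.

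Alpha-actinins crosslink antiparallel thin filaments at the Z-disc. The ACTN3 values were 12.99, 14.29, 13.51, 14.67 and 10.40 in ad libitum dogs 2, 5, 6, 7 and 8, and 14.10, 14.29, 13.83 and 14.70 in control dogs 1, 3, 4 and 9. Dogs 2, 6 and 8 lay below every control dog, dogs 5 and 7 lay within the control range, and dog 8 lay 3.83 below the control mean. The group means were 13.17 ± 1.68 (SD, n = 5) and 14.23 ± 0.37 (SD, n = 4), so the spread within the ad libitum group was larger than the distance between the groups. The difference was -1.06 (SE 0.756, 95% CI -2.76 to 0.64, limma adjusted p = 0.826), and the 3 ACTN3 probe sets gave -1.12 to -1.01. Without ad libitum dog 8 the difference was -0.37, and over the 9 leave-one-out fits it ran from -1.43 (without dog 7) to -0.37.

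ACTN2 was nearly level across the same dogs. Its values were 14.55, 14.51, 14.47, 14.48 and 14.78 in ad libitum dogs and 14.47, 14.77, 14.59 and 14.57 in control dogs, a difference of -0.042 (SE 0.111, 95% CI -0.29 to 0.21). Dog 8, the lowest dog for ACTN3, was the highest for ACTN2. The within-dog difference of ACTN3 minus ACTN2 was -1.56, -0.22, -0.97, 0.18 and -4.37 in ad libitum dogs and -0.37, -0.48, -0.76 and 0.13 in control dogs. The mean of that quantity was lower in ad libitum dogs by 1.02 (group difference -1.02), with an exact two-sided permutation p of 0.357, or 0.698 adjusted over the 8 paralog pairs compared. The smallest p this test can give with 5 and 4 dogs is 0.00794.

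**Figure D2:**
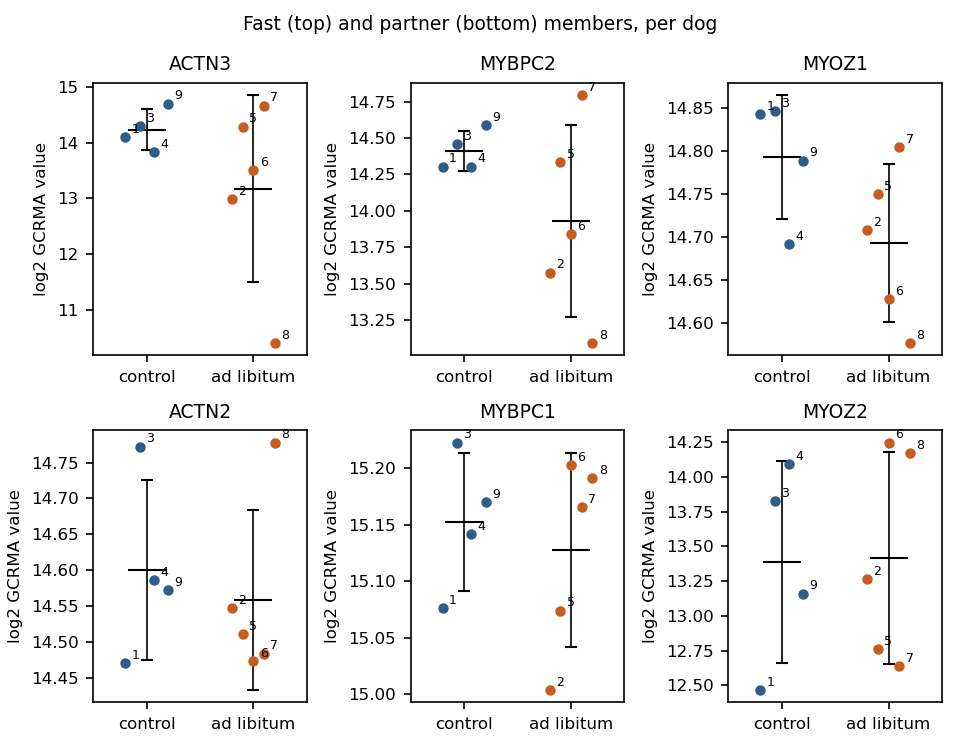
Log2 value in each dog (vertical axis, a separate scale in every panel) for ACTN3, MYBPC2 and MYOZ1, the fast-fibre forms, above ACTN2, MYBPC1 and MYOZ2, with ad libitum and control dogs side by side, dog numbers beside the points and bars for mean ± SD. ACTN3 reaches down to 10.40 in ad libitum dog 8 and MYBPC2 to 13.09 in the same dog, while ACTN2 stays between 14.47 and 14.78.

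ACTN3 was highest in the dogs with high fast-fibre markers and lowest in the dog lowest for them. The mean of 11 fast-fibre markers, which hold no member, was 13.997, 14.57, 13.89, 14.44 and 13.54 in ad libitum dogs 2, 5, 6, 7 and 8 and 14.30, 14.12, 14.19 and 14.60 in control dogs 1, 3, 4 and 9. Over the 9 dogs, ACTN3 and that mean had Pearson's r = 0.879 (exact permutation p = 0.000714, adjusted 0.00357 over 5 relations) and Spearman's rho = 0.85 (permutation p = 0.00607, adjusted 0.0152). Without dogs 8 and 9, the 2 farthest from the median of the marker mean, r was 0.766 over 7 dogs (exact permutation p = 0.0437). Without dog 8 alone r was 0.819 and its adjusted permutation p 0.0632, above 0.05. Within the 5 ad libitum dogs r was 0.897, given without a test, and the 4 control dogs are too few for a value. The marker mean was not scaled by gene. It therefore moved most with the myosin heavy chain MYH1 (10.64 to 15.43 over the 9 dogs) and with PVALB (4.32 to 7.32). The next widest marker, CASQ1, ran from 11.89 to 13.19.

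MYH1, the fast IIx myosin heavy chain, had its lowest values in 2 of the 3 dogs that were low for ACTN3. Its values were 13.04, 15.09, 10.94, 15.43 and 10.64 in ad libitum dogs and 13.97, 13.16, 13.72 and 15.28 in control dogs, a difference of -1.01 (SE 1.05). MYH2, the IIa heavy chain, differed by -0.11 and MYH7, the slow heavy chain, by 0.16. MYH4, the IIb heavy chain, did not pass the filter, with 3.99 as its highest value. All 11 tested fast markers had a lower mean in ad libitum dogs and all 8 tested slow markers a higher mean, with medians of -0.14 and 0.13 and 0 of 19 past an adjusted p of 0.05. Fewer fast fibres and less ACTN3 RNA in each fibre cannot be told apart in RNA of whole muscle.

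The other relations computed were with 3 further marker lists and 1 measure of RNA quality. Against the slow marker mean, ACTN3 had r = -0.493 (exact permutation, adjusted p = 0.289) and rho = -0.583 (adjusted 0.135). Without dogs 1 and 7 r was -0.413 (exact permutation p = 0.325). Against adipocyte markers the values were r = -0.378 and rho = -0.533 (exact permutation, adjusted p = 0.384 and 0.148). Without dogs 3 and 4 r was -0.408 (exact permutation p = 0.372). Against fibroblast and matrix markers they were r = -0.346 and rho = -0.6 (exact permutation, adjusted p = 0.384 and 0.135). Without dogs 5 and 6 r was -0.740 (exact permutation p = 0.0361). The array's 3′ minus 5′ difference for GAPDH, which grows as RNA shortens, had rho = -0.867 with ACTN3 (permutation p = 0.00451, adjusted 0.0152) but r = -0.581 (exact permutation p = 0.109, adjusted 0.272), and r = -0.718 without dogs 2 and 3 (exact permutation p = 0.0157). That difference was 2.29, 2.15, 2.24, 2.14 and 2.25 in ad libitum dogs and 2.12, 1.96, 2.22 and 2.08 in control dogs, with an exact two-sided permutation p of 0.0714 between the groups. Its part in the ACTN3 values was not tested.

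**Figure D3:**
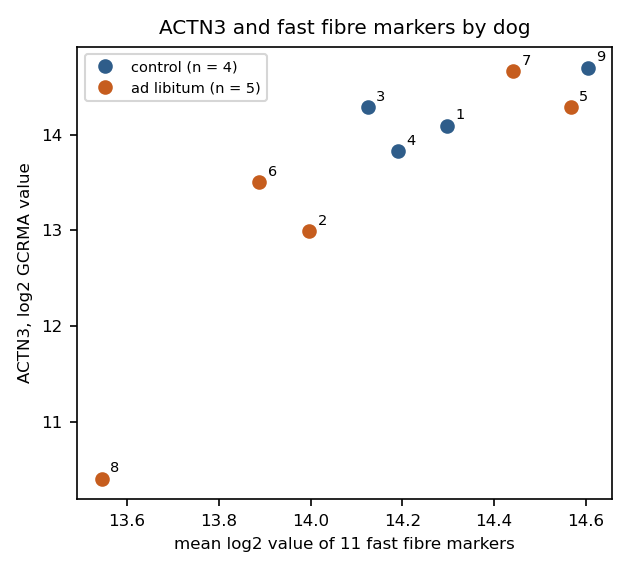
ACTN3 (vertical axis, log2 value) against the mean of 11 fast-fibre markers (horizontal axis, mean log2 value), 1 point for each of the 9 dogs, numbered and coloured by group. Ad libitum dog 8 is lowest on both axes, at 13.54 and 10.40, and dogs 9 and 7 have the 2 highest ACTN3 values.

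The remaining Z-disc members had small differences, MYOZ3 apart. Of the 15 Z-disc genes, 11 had a lower and 4 a higher mean in ad libitum dogs, with a median difference of -0.042, a range of -1.06 to 0.12, and 13 of 15 within 0.25. The calsarcins tether calcineurin to the Z-disc. MYOZ1, the calsarcin of fast fibres, read 14.71, 14.75, 14.63, 14.80 and 14.58 in ad libitum dogs against 14.84, 14.85, 14.69 and 14.79 in control dogs (difference -0.099, SE 0.097). MYOZ2, the slow-fibre and heart form, spread far more, with 13.26, 12.76, 14.25, 12.64 and 14.17 against 12.47, 13.83, 14.09 and 13.16 (difference 0.030, SE 0.442). MYOZ3, another fast-fibre form, read 7.54, 7.50, 7.69, 8.09 and 7.68 against 8.69, 6.94, 8.26 and 8.50 (difference -0.40, SE 0.329). The ad libitum dogs all lay inside the control range of MYOZ3, and its other tested probe set gave 0.22. Neither calsarcin pair separated the groups: MYOZ1 minus MYOZ2 differed by -0.13 and MYOZ3 minus MYOZ2 by -0.43 (exact permutation p adjusted over the 8 pairs = 0.810 and 0.751).

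The Z-disc scaffolds and titin anchors were close to level by their brightest probe sets. TCAP (telethonin), which caps the ends of titin, differed by 0.12 (SE 0.165), and MYOT (myotilin), an actin-bundling protein, by -0.018 (SE 0.157). FLNC, the muscle filamin, differed by -0.089 (SE 0.180). LDB3 (ZASP/Cypher), a PDZ and LIM protein that binds alpha-actinin, differed by -0.081 (SE 0.170). The other PDZ and LIM proteins PDLIM3, PDLIM5 and PDLIM7 differed by 0.061, -0.17 and -0.0066. Of the 4 PDLIM3 probe sets, the 3 brightest gave 0.061 to 0.078 and the dimmest 0.64. The 3 PDLIM7 probe sets gave -0.0066 to 0.23. The immunoglobulin-domain proteins MYPN (myopalladin) and PALLD (palladin) differed by -0.15 (SE 0.204) and 0.013 (SE 0.253). A second PALLD probe set gave -0.40 with groups that did not overlap and a limma adjusted p of 0.796.

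PDLIM7 and CSRP3 had small differences over large spreads. Their values are given because of that spread, a choice made after the values were seen. PDLIM7 read 10.02, 10.94, 9.98, 11.48 and 9.05 in ad libitum dogs and 10.34, 10.20, 9.85 and 10.82 in control dogs, with ad libitum dogs 7 and 8 at opposite ends. CSRP3 (muscle LIM protein), a Z-disc and nuclear protein richer in slow fibres, read 13.68, 12.92, 14.34, 10.83 and 13.98 against 12.31, 14.65, 13.27 and 12.53. Its lowest value, in ad libitum dog 7, lay 1.49 below the lowest control dog, and the group difference was -0.039 (SE 0.740).

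The M-band and thick filament group held 5 genes, with 4 lower means, a median difference of -0.12 and a range of -0.49 to 0.17. MYBPC2, the fast myosin-binding protein C that bridges thick and thin filaments, had the lowest p of this group. It read 13.58, 14.33, 13.84, 14.79 and 13.09 in ad libitum dogs and 14.30, 14.46, 14.30 and 14.59 in control dogs. Dogs 2, 6 and 8, the 3 that lay below all controls for ACTN3, lay below all controls here too, and dog 7 was the highest of the 9. The means were 13.93 ± 0.66 (SD, n = 5) and 14.41 ± 0.14 (SD, n = 4), a difference of -0.49 (SE 0.306, 95% CI -1.18 to 0.20, limma adjusted p = 0.806). All 4 MYBPC2 probe sets gave a lower mean, from -0.70 to -0.49. The difference was -0.28 without dog 8 and -0.70 without dog 7.

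MYBPC1, the slow form, was among the steadiest members. It read 15.00, 15.07, 15.20, 15.17 and 15.19 in ad libitum dogs and 15.08, 15.22, 15.14 and 15.17 in control dogs (difference -0.025, SE 0.0948). MYBPC2 minus MYBPC1 was -1.43, -0.74, -1.36, -0.37 and -2.10 in ad libitum dogs and -0.77, -0.76, -0.84 and -0.58 in control dogs. It was below every control in dogs 2, 6 and 8, and its group difference of -0.46 had an exact permutation p of 0.230 (adjusted 0.698 over 8 pairs). MYBPH, a related myosin-binding protein, read between 2.33 and 5.34, near the filter of 4, with a difference of 0.17 (SE 0.720).

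Myomesins crosslink myosin at the M-band. MYOM2, the fast-fibre myomesin, read 13.88, 13.68, 13.47, 14.08 and 13.94 in ad libitum dogs and 13.88, 14.25, 13.84 and 14.07 in control dogs, a difference of -0.20 (SE 0.153, limma adjusted p = 0.838). All 9 tested MYOM2 probe sets gave a lower mean, from -0.46 to -0.20. MYOM1, present in all striated fibres, read 13.13, 13.22, 13.49, 13.59 and 14.04 against 13.61, 13.52, 13.61 and 13.72 (difference -0.12, SE 0.181). MYOM2 minus MYOM1 differed by -0.081 between the groups (exact permutation, adjusted p = 0.789).

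The thin filament group of 9 genes held both the steadiest and 1 of the most variable members. ACTA1, the skeletal alpha-actin of adult muscle, read 16.40, 16.46, 16.45, 16.43 and 16.44 in ad libitum dogs and 16.41, 16.45, 16.36 and 16.43 in control dogs. Its pooled SD of 0.032 was the lowest of the 39 and its difference 0.025 (SE 0.0857). Its values sit near the upper end of the deposited range.

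ACTC1, the cardiac alpha-actin that skeletal muscle makes mainly before birth and during repair, had the largest difference of the set. It read 9.09, 11.76, 10.79, 6.69 and 9.94 in ad libitum dogs 2, 5, 6, 7 and 8 and 6.98, 7.40, 6.82 and 8.24 in control dogs 1, 3, 4 and 9. Dogs 2, 5, 6 and 8 lay above every control, and dog 7 was the lowest of the 9. The means were 9.65 ± 1.93 (SD, n = 5) and 7.36 ± 0.63 (SD, n = 4), a difference of 2.29 or 4.90-fold (SE 0.887, 95% CI 0.30 to 4.29, limma adjusted p = 0.796). A second ACTC1 probe set gave 1.04. The difference was 3.04 without dog 7 (limma adjusted p = 0.113) and 1.77 without dog 5. The sarcomeric actin pair, ACTA1 minus ACTC1, was 7.31, 4.69, 5.66, 9.75 and 6.51 in ad libitum dogs and 9.42, 9.05, 9.54 and 8.20 in control dogs. That contrast differed by -2.27 with an exact permutation p of 0.0714, adjusted to 0.571 over 8 pairs.

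Fibroblast and matrix markers had their highest values in dogs 5 and 6, the dogs highest for ACTC1. The mean of 11 fibroblast and matrix markers was 10.26, 11.74, 10.57, 7.75 and 9.88 in ad libitum dogs and 8.87, 7.45, 8.46 and 8.29 in control dogs, with dog 5 highest and dog 7 the lowest of its group for both. All 11 had a higher mean in ad libitum dogs (median 1.87), 6 with an unadjusted limma p under 0.05, against 6.23% of all genes, and 0 after adjustment. All 12 tested adipocyte markers had a higher mean too (median 0.76, range 0.30 to 3.81), 3 with an unadjusted limma p under 0.05. Their marker means were 7.81 to 9.97 in ad libitum and 7.01 to 8.92 in control dogs, and ADIPOQ differed by 0.36. All 8 tested macrophage markers had a higher mean (median 1.08), 3 with an unadjusted limma p under 0.05. Endothelial markers split into 5 higher and 5 lower (median 0.046). Their mean was 8.34, 7.97, 7.92, 7.91 and 8.35 in ad libitum dogs 2, 5, 6, 7 and 8, against 7.99 to 8.25 in control dogs. Smooth muscle and pericyte markers split into 5 higher and 3 lower (median 0.021). With the adipocyte marker mean as a covariate the ACTC1 difference was 1.05. MYH3, the embryonic heavy chain, read 9.79, 12.36, 9.96, 12.28 and 9.51 against 10.05, 8.31, 9.57 and 9.76, with high values in dogs 5 and 7. Of the heart markers TNNT2, TNNI3 and MYL4 were tested and differed by 1.34, 0.50 and 0.44, while MYL7, NPPB and RYR2 did not exceed 2.56, 2.43 and 2.87 in any dog. The markers' part in the ACTC1 difference was not tested.

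The proteins that set thin filament length varied less. NEB (nebulin), which runs along the filament, read 13.26, 14.17, 14.41, 14.44 and 14.48 in ad libitum dogs and 13.96, 13.65, 14.13 and 14.20 in control dogs by its brightest probe set (difference 0.17, SE 0.258). Its 8 tested probe sets ran from -0.49 to 0.27, 5 lower and 3 higher. Tropomodulins cap the pointed end. TMOD4, the skeletal form, counted here with the fast-fibre genes, read 13.97, 13.95, 14.09, 13.91 and 13.73 against 13.80, 13.91, 14.18 and 13.95 (difference -0.029, SE 0.119). TMOD1 read 10.96, 11.16, 11.08, 11.83 and 11.03 against 11.44, 11.02, 11.43 and 11.86 (difference -0.23, SE 0.218), and TMOD4 minus TMOD1 differed by 0.20 (exact permutation, adjusted p = 0.698).

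Leiomodins nucleate and lengthen actin at the same end. LMOD3 read 11.48, 12.41, 12.33, 12.66 and 12.65 in ad libitum dogs and 12.46, 12.56, 12.55 and 13.01 in control dogs, with dogs 2, 5 and 6 below every control. Its difference was -0.34 (SE 0.247, limma adjusted p = 0.831), and its 3 probe sets gave -0.43 to -0.34. LMOD2 read 13.99, 14.03, 14.29, 14.11 and 14.16 against 13.85, 14.63, 14.14 and 14.05 (difference -0.054, SE 0.161), inside the control range in all 5 ad libitum dogs. LMOD3 minus LMOD2 differed by -0.28 (exact permutation, adjusted p = 0.698). The barbed-end capping proteins at the Z-disc, CAPZA2 and CAPZB, differed by -0.25 (SE 0.226) and -0.24 (SE 0.136). CAPZB read exactly 7.53 in 4 of the 9 dogs, 1 of 5 members in which dogs shared a value.

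Titin and its I-band partners were 4 genes, with 3 lower means. CAPN3, the muscle calpain that is anchored on titin and whose loss causes limb-girdle muscular dystrophy, had the lowest p of all members. It read 9.68, 9.12, 9.54, 9.48 and 9.68 in ad libitum dogs and 9.72, 10.21, 10.39 and 10.27 in control dogs. All 5 ad libitum dogs lay below all 4 controls, by 0.045 between control dog 1 and the nearest ad libitum dog. The means were 9.50 ± 0.23 (SD, n = 5) and 10.15 ± 0.29 (SD, n = 4), a difference of -0.65, or 1.57-fold (SE 0.172, 95% CI -1.04 to -0.26, limma adjusted p = 0.796). The difference stayed between -0.79 and -0.56 with any 1 dog left out. It was -0.51 with the adipocyte covariate and -0.73 with the fast-fibre covariate. This rests on 1 probe set, since the other 3 for CAPN3 averaged 1.36 to 3.26 and did not pass the filter.

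**Figure D4:**
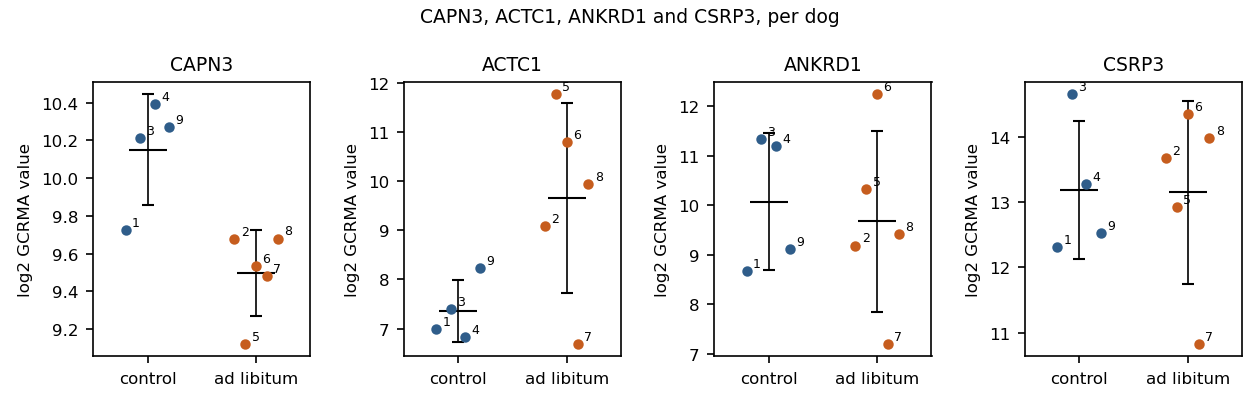
Log2 value in each dog (vertical axis, a separate scale in every panel) for CAPN3, ACTC1, ANKRD1 and CSRP3, with ad libitum and control dogs side by side, dog numbers beside the points and bars for mean ± SD. The CAPN3 groups do not overlap, 4 of 5 ad libitum dogs lie above all controls for ACTC1, and ANKRD1 and CSRP3 spread widely in both groups with dog 7 lowest.

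TTN (titin), the molecular spring of the sarcomere, read 15.48, 15.72, 15.65, 15.72 and 15.77 in ad libitum dogs and 15.73, 15.68, 15.59 and 15.72 in control dogs by its brightest probe set, a difference of -0.011 (SE 0.0999). TTN had 20 tested probe sets and all 20 gave a lower mean in ad libitum dogs, with a median of -0.21. These 20 report parts of one gene in the same dogs and are not independent. The 7 with a mean above 14 gave -0.079 to -0.011 and the other 13 gave -1.45 to -0.14. Of the 20, 3 had an unadjusted p under 0.05, and their lowest limma adjusted p was 0.796. The probe set with the difference of -1.45 (SE 1.19) read from 10.06 to 15.12 in ad libitum dogs and from 11.05 to 15.45 in control dogs.

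ANKRD1 and ANKRD2 bind titin's N2A segment and rise with stretch. ANKRD1 had the widest spread of the set (pooled SD 1.65), from 7.20 in dog 7 to 12.23 in dog 6, both fed ad libitum, and from 8.67 to 11.33 in controls. Its difference was -0.40 (SE 0.965), and it was -1.04 without dog 6 and 0.22 without dog 7, so its direction rests on single dogs. ANKRD2, the form of slow fibres, read 11.60, 11.43, 11.86, 10.79 and 9.95 against 9.37, 11.92, 11.20 and 10.01 (difference 0.50, SE 0.558). That value ranged from 0.083 to 0.93 with 1 dog left out.

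Intermediate filaments tie neighbouring Z-discs together, and the costamere ties them to the membrane. DES (desmin) differed by -0.12 (SE 0.116). SYNM (synemin), its partner, read 7.79, 7.52, 8.71, 8.03 and 8.08 in ad libitum dogs and 7.29, 7.66, 8.06 and 7.93 in control dogs (difference 0.29, SE 0.248, limma adjusted p = 0.862). XIRP1, an actin-binding repeat protein of the myotendinous junction that marks fibre damage, read 9.79, 10.41, 10.94, 10.56 and 9.89 against 9.74, 10.85, 9.44 and 9.67. Control dog 3 lay with the higher ad libitum dogs, and the difference was 0.39 (SE 0.330, limma adjusted p = 0.861). Its relative XIRP2 differed by -0.11 (SE 0.264), and the other tested XIRP2 probe set gave -0.57. NRAP, a nebulin-related anchoring protein, differed by 0.020 (SE 0.159) and SMPX, a small stretch-linked protein, by 0.11 (SE 0.189). Of the tendon markers THBS4 and FMOD were tested and both had a higher mean in ad libitum dogs, with marker means of 4.47 to 10.61 against 4.48 to 7.22. TNMD, COMP and KERA did not pass the filter, which asks for at least 4 arrays above 4. Still, TNMD read 8.85 in ad libitum dog 5 and COMP 11.6 in ad libitum dog 6. In the other ad libitum dogs they read at most 3.26 and 4.57, and in control dogs at most 2.22 and 5.19. The tendon markers' part in the junction genes' values was not tested.

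Grouped by fibre type, all 6 fast members had a lower mean in ad libitum dogs, with differences of -1.06 (ACTN3), -0.49 (MYBPC2), -0.40 (MYOZ3), -0.20 (MYOM2), -0.099 (MYOZ1) and -0.029 (TMOD4) and a median of -0.30. The 4 slow members MYBPC1, MYOZ2, CSRP3 and ANKRD2 had 2 lower and 2 higher means with a median of 0.0025. The 29 members with no fibre type had 18 lower means and a median of -0.042. None of the 10 typed members passed the adjusted threshold in limma's test, or an unadjusted p under 0.05. With the fast-fibre marker mean as a covariate, the differences of the 6 fast members were -0.36 (ACTN3), -0.21 (MYBPC2), -0.30 (MYOZ3), -0.20 (MYOM2), -0.063 (MYOZ1) and -0.015 (TMOD4). The 6 members known to respond to load or injury (ANKRD1, ANKRD2, CSRP3, XIRP1, MYBPH and ACTC1) had 4 higher and 2 lower means with a median of 0.28.

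The dogs did not move as blocks of 5 and 4. Ad libitum dog 2 was the lowest of the 9 dogs for 13 of 39 members, with a median deviation from the 9-dog mean of -0.14. Ad libitum dog 6 was the highest for 8 members and control dog 3 for 9. The within-group SD was larger in ad libitum dogs for 27 of 39 members, against 60.3% of all genes. Over the members the pooled SD ran from 0.032 (ACTA1) to 1.65 (ANKRD1) with a median of 0.32. It was under 0.2 for 9 members and over 1 for ANKRD1, ACTC1, ACTN3, CSRP3 and MYBPH.

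**Figure D5:**
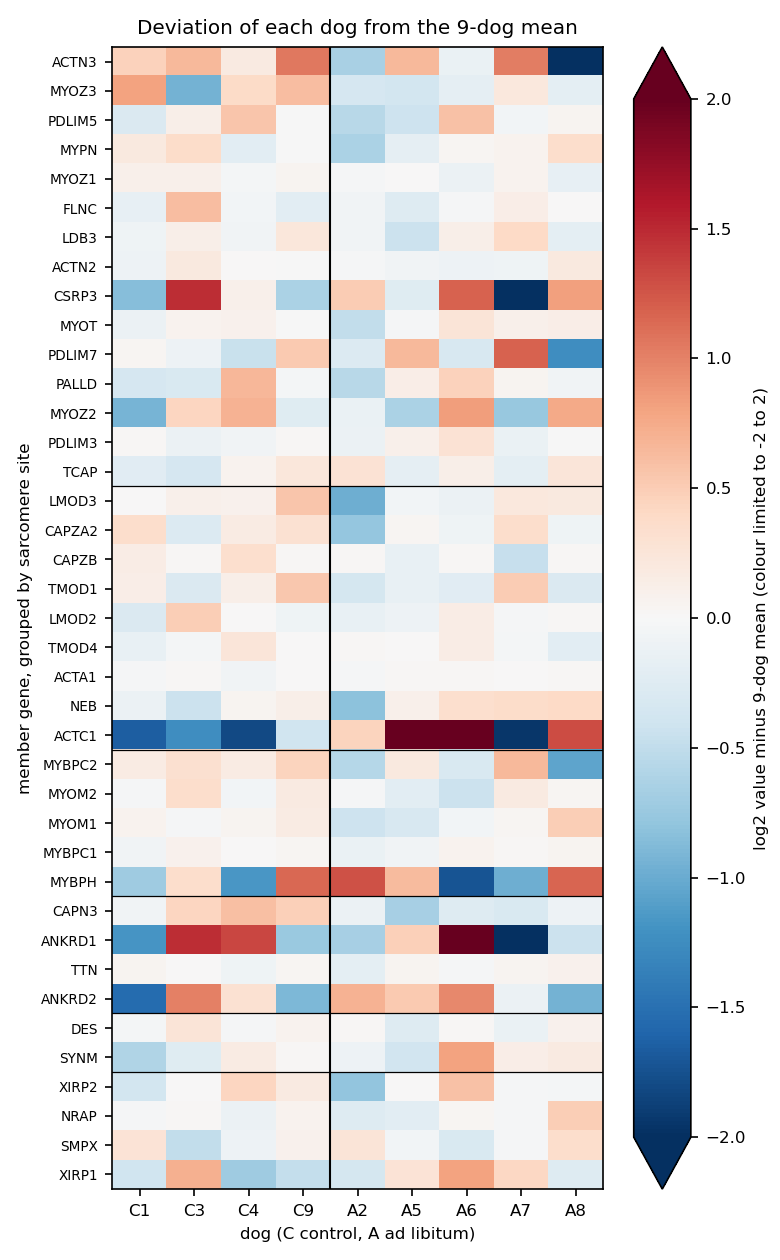
Deviation of each dog from the 9-dog mean (colour, log2 units, limited to -2 to 2) for the 39 members in rows by sarcomere site and the 9 dogs in columns by group. Rows of ACTC1, ANKRD1 and CSRP3 carry strong colour in dogs of both groups, the ACTN3 row is strongest in ad libitum dog 8, and rows such as ACTA1, TTN and MYBPC1 stay pale.

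Of 31 further sarcomere genes outside the set, 23 passed the filter, 13 with a higher and 10 with a lower mean. Of these 23, 0 passed the adjusted threshold in limma's test, while 4 had an unadjusted p under 0.05, against 6.23% of all genes. Those 4 were FHL3, a LIM protein, at -1.03 (SE 0.303), UNC45B, the myosin chaperone, at -0.41 (SE 0.150), PDLIM2 at 0.78 (SE 0.322) and ITGB1BP2 (melusin) at -0.35 (SE 0.145). Each had a limma adjusted p of 0.796. The groups of UNC45B did not overlap, as for 1.46% of all genes.

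Which members pass an unadjusted p under 0.05 changed with single dogs. CAPN3 did so in each of the 9 leave-one-out fits and ACTC1 in 3. Without control dog 3 the members were CAPN3, MYOZ3 and XIRP1 (3 of 39, against 4.57% of genes), and without ad libitum dog 7 they were CAPN3, ACTC1 and MYBPC2 (3 of 39, against 12.0% of genes). Without ad libitum dog 2 they were CAPN3, ACTC1 and NEB (3 of 39, against 5.15% of genes). CAPN3 was the 1 member without control dog 1 or 4 (against 6.38% and 5.06% of genes) or without ad libitum dog 5, 6 or 8 (against 3.82%, 4.87% and 6.54%). The members with groups that did not overlap were 3 without control dog 3 (CAPN3, MYOZ3 and XIRP1, against 3.13% of genes). They were 2 without ad libitum dog 7 (CAPN3 and ACTC1, against 6.86% of genes) and 2 without control dog 9 (CAPN3 and CAPZB, against 2.77%). The share of all genes with either property also changed with the dog left out, and nothing particular to the members is read from these counts.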

How the data were processed

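The deposited log2 values, 1 per probe set and dog, are GCRMA output of the authors according to the submitters' processing notes, with no version. No label states the log base, and log2 was inferred from the range, 0.652 to 16.6. GCRMA quantile-normalizes arrays, so a shift of most transcripts would not appear, and values near background are uncertain.

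Of 43035 probe sets, 111 controls were left out, and the 18394 above 4 on at least 4 arrays went into a fit of both groups without covariates by limma 3.58.1 under R 4.3.3 (lmFit and eBayes, two-sided) with Benjamini-Hochberg adjustment at 0.05. The fit had 7 residual and 2.32 prior degrees of freedom and was tested on simulated data. Correlations between arrays were 0.934 to 0.981. The number of arrays limits precision. Replicates are dogs, per the labels.

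Symbols came from the platform annotation, and 33 of 39 members matched RefSeq's gene table for UU_Cfam_GSD_1.0 by Entrez ID. All members are named. Values per dog are given for ACTN3, the paralog pairs, the lowest p of each site and members with an unadjusted p under 0.05. Members and gene lists were chosen with earlier results of these data known. Alternatives were other filters, scalings, covariates, array weights, probe-set means and leaving out each dog.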

Additional observations from a re-analysis of the deposited data

Results flagged for a closer look

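In 4 of 104 groups of 4 or 5 dogs checked, 78 of them for members, 1 dog lay far from the others of its group, where chance gives about 1 in 20. The measure is the gap from the extreme dog to its nearest neighbour divided by the range of the group, set against Dixon's 95% critical value. For ACTN2, ad libitum dog 8 was high at 14.78, next to 14.55, with a ratio of 0.758. For NEB, ad libitum dog 2 was low at 13.26, next to 14.17, with a ratio of 0.748. For LMOD3, the same dog 2 was low at 11.48, next to 12.33, with a ratio of 0.720. For TMOD1, ad libitum dog 7 was high at 11.83, next to 11.16, with a ratio of 0.771.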

How the results depend on the processing

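With 5 and 4 dogs and a median SE of 0.197, small differences were not detectable, and several members have wide intervals. No member had an adjusted p under 0.05 in any of the 19 alternatives (lowest 0.113, ACTC1 without ad libitum dog 7). The sign was the same in all 19 for 19 of 39 members. No paired analysis was possible because the groups share no animal numbers. MYBPH was not tested with a filter of 6.

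The count of members with an unadjusted p under 0.05, 2 as reported, was 4 with array weights (10.4% of all genes) and 1 with the adipocyte covariate (2.56% of all genes). With 1 dog left out it was 1 to 3 (3.82% to 12.0% of all genes), and there it did not follow the share over all genes. The count was 3 without control dog 3, at a share of 4.57%, and 1 without ad libitum dog 8, at 6.54%. The count of members whose groups do not overlap, 1 as reported, was 0 with arrays centred on their medians (1.92% of all genes) and 1 to 3 with 1 dog left out (1.70% to 6.86% of all genes). The count of lower means, 26 as reported (50.4% of all genes), was 19 with the adipocyte covariate (44.4% of all genes). It was 22 to 28 with 1 dog left out (47.7% to 53% of all genes), and there it did not follow the share over all genes. The count was highest, 28, without ad libitum dog 6, where that share was 48.8%.

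The sign changed in at least 1 alternative for 20 members, of which 1, ANKRD1 at -0.40, had a reported difference above 0.25 in size. With array weights the values were -0.21 for MYBPH, 0.055 for MYOT, 0.0039 for FLNC, 0.47 for CSRP3, 0.49 for ANKRD1, 0.022 for XIRP2, -0.042 for SMPX and 0.054 for LMOD2. With the adipocyte covariate they were 0.010 for TTN, 0.032 for MYBPC1, -0.48 for MYBPH, 0.078 for LDB3, 0.15 for MYOT, 0.094 for FLNC, -0.027 for PDLIM3, 0.11 for PDLIM5, 0.25 for PDLIM7, 0.16 for XIRP2, -0.060 for SMPX, 0.085 for LMOD2 and 0.026 for TMOD4. With the fast-fibre covariate they were -0.33 for MYOZ2, 0.44 for PDLIM7 and -0.068 for NRAP. With the mean over a gene's probe sets they were -0.16 for NEB, 0.0043 for CSRP3, 0.15 for PDLIM7 and -0.15 for PALLD. Centring gave 0.0038 for TTN and 0.0078 for PDLIM7, and cyclic loess 0.0096 for TTN. The cause was not tested.

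With 1 dog left out, 21 of 39 members kept their sign. The others ranged from -0.096 to 0.016 for ACTN2, -1.04 to 0.22 for ANKRD1, -0.34 to 0.54 for CSRP3, -0.18 to 0.10 for FLNC, -0.19 to 0.018 for LDB3, -0.16 to 0.10 for LMOD2, -0.051 to 0.0059 for MYBPC1, -0.19 to 0.62 for MYBPH, -0.084 to 0.10 for MYOT, -0.28 to 0.27 for MYOZ2, -0.10 to 0.087 for NRAP, -0.10 to 0.23 for PALLD, -0.0051 to 0.10 for PDLIM3, -0.30 to 0.30 for PDLIM7, -0.034 to 0.22 for SMPX, -0.082 to 0.045 for TMOD4, -0.040 to 0.036 for TTN and -0.27 to 0.074 for XIRP2. Of the paralog pairs, MYOM2 minus MYOM1 ranged from -0.19 to 0.031, MYOZ1 minus MYOZ2 from -0.40 to 0.19 and MYOZ3 minus MYOZ2 from -0.96 to 0.078. Pearson's r of ACTN3 with the fast markers ranged from 0.819 to 0.917, and the GAPDH 3′ minus 5′ group difference from 0.0758 to 0.162.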
